A study of Rattus norvegicus with 4 samples.

Results

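The immediate early response genes were followed in rat colon through 10 genes: the AP-1 subunits Fos, Fosl1, Fosl2, Jun, Junb and Jund, the transcription factors Egr1 and Atf3, and the MAP kinase phosphatases Dusp1 and Dusp6. They were chosen by name, and each was taken as the deposited row whose RefSeq accession maps to its symbol, with the brightest row where a gene had several. All 10 held a value on all 4 arrays, among 18350 measured rows of 26420. Colon RNA of 4 male Sprague Dawley rats was labeled with the dye Cy3 and put on NimbleGen one-color arrays, 1 array per rat, with 2 in the control group and 2 in the group with mesenchymal stem cell transplantation (MSCT). The MSCT rats had colitis induced with TNBS, a hapten given into the colon in ethanol, and then received GFP-labeled mesenchymal stem cells through the tail vein. The control rats are called normal in the sample descriptions and IBD control rats in the study's text, so whether they had received TNBS is not settled. The paper's Methods and Results name different days after transplantation for the chips, and the labels give none. The pieces were whole colon with mucosa and muscle, and in such tissue fewer cells of a type and less RNA per cell cannot be told apart.

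Immediate early genes are transcribed within minutes of a growth factor, cytokine, stress or injury signal, from transcription factors already present in the cell, so no new protein is needed. Their mRNAs are short-lived, and the level in a tissue piece follows the signals of its last hours, including those of its removal. Fos and Jun proteins pair through a leucine zipper into the AP-1 factor, whose makeup decides which genes it binds and activates. The phosphatases Dusp1 and Dusp6 are themselves induced by MAP kinases and switch them off, Dusp1 acting in the nucleus, mainly on p38 and JNK, and Dusp6 in the cytoplasm, on ERK. In the gut, these genes respond to epithelial damage and during repair.

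The genes did not move as a block. Dusp1 was lower in the MSCT group, whereas Dusp6 and Fosl1 were higher, each by more than 2-fold. Fos, Fosl2 and Jun were lower by less than 2-fold, and Junb, Jund, Egr1 and Atf3 did not pass either test. Groups were compared on log2 intensity with the linear models of limma, in which rows share information on the variance. A row passed the screen with a difference over 2-fold and an unadjusted limma p under 0.05, the limits of the study's methods, which name no test for the chips. By this screen, 1 of the 10 genes was lower, where 2.51% of all rows were lower, and 2 were higher, where 2.12% were (4.63% in either direction, or 850 rows). With the p of a plain equal-variance test of each row in place of that of limma (one-way analysis of variance on 2 groups, the methods' t-test), 388 rows passed the same limits (2.11%, with 1.07% lower and 1.04% higher), and of the 10 genes 0 were lower and 2 higher, Dusp1 no longer passing. The row counts by this plain test equal those the paper reports, in total and in each direction, and those by limma do not. The paper's screen was thus matched by the plain test, by which Dusp1 did not pass. At an unadjusted limma p under 0.05 without the fold limit, 4 of the 10 were lower and 2 higher, beside 7.17% and 4.8% of all rows (12% in either direction). None of the 10 reached a limma p of 0.05 adjusted over all rows (0% of all rows passed), and the smallest adjusted p among them was 0.269. The median difference of the 10 was 0.01 on the log2 scale, beside -0.02 over all rows. For 7 of the 10 genes the control and MSCT values were fully separate, 4 lower and 3 higher, where 24.5% and 21.3% of all rows did not overlap (45.8% in either direction). The smallest two-sided p of an exact permutation test on 4 arrays is 0.333, so every p of limma rests on the shared variance and covers only the spread between these rats.

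**Figure D1:**
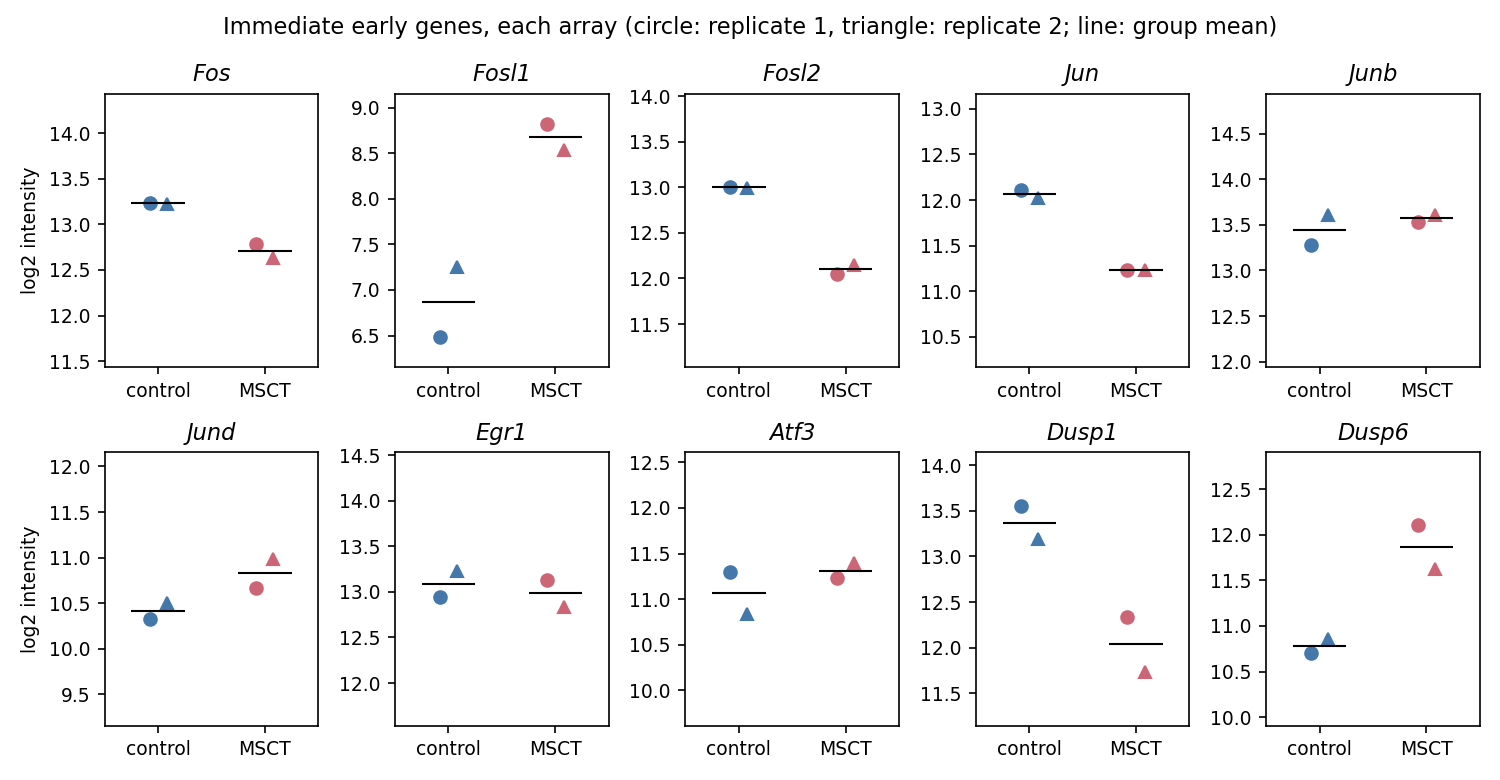
Log2 intensity of the 10 immediate early genes on each array, 1 panel per gene, each spanning 3 log2 units. Circles are replicate 1, triangles replicate 2 and lines group means of 2 arrays. The control and MSCT arrays are apart for Fos, Fosl1, Fosl2, Jun, Jund, Dusp1 and Dusp6 and overlap for Junb, Egr1 and Atf3.

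Dusp1 (NM_053769), the nuclear phosphatase, had an intensity of 12010 and 9359 in the control rats against 5176 and 3418 in the MSCT rats. Both MSCT rats lay well below both control rats, although the replicates were spread widely. On the log2 scale the level was 13.37 ± 0.25 (SD, n = 2) in the control group and 12.04 ± 0.42 (SD, n = 2) in the MSCT group. The difference was -1.33 (standard error 0.30), 2.52-fold lower in the MSCT group, with an unadjusted limma p of 0.00831 and an adjusted p of 0.299. By the methods' t-test the unadjusted p was 0.0622, and Dusp1 did not pass the screen. Leaving out single arrays kept it between -1.63 and -1.03.

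Dusp6 (NM_053883), the ERK phosphatase, had an intensity of 1673 and 1862 in the control rats against 4409 and 3164 in the MSCT rats. Both MSCT rats were above both control rats, and they differed more from each other than the control rats did. The log2 difference was 1.08 (standard error 0.25), 2.12-fold higher in the MSCT group (limma adjusted p = 0.307), and it passed the screen. By the methods' t-test the unadjusted p was 0.04999, barely under the limit of 0.05. Without MSCT replicate 1, which had the higher Dusp6 value of the MSCT rats, the difference was 0.84 and did not pass the screen, with an unadjusted limma p of 0.0512. The phosphatases thus differed in opposite directions in the same animals. Their differences were 2.42 log2 units apart. The within-array ratio of Dusp6 to Dusp1 did not overlap between the groups (exact permutation test, two-sided p = 0.333, the smallest that 2 arrays against 2 allow). This followed from the single genes, which were each separate, in opposite directions.

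Among the Fos family, Fosl1 (NM_012953), which encodes Fra-1, a subunit associated with migrating and injured epithelium, had an intensity of 89.6 and 153 in the control rats against 452 and 370 in the MSCT rats. The MSCT arrays were clearly higher, but the control values lay near the dim end of the arrays, and the control rats differed by 0.77 on the log2 scale. The log2 difference was 1.80 (standard error 0.33), 3.49-fold, with an unadjusted limma p of 0.00393 and an adjusted p of 0.269. It was 1.42 when control replicate 1 was left out and 2.19 when control replicate 2 was, and it passed the screen with any single array left out. The row was among the dimmest 25% by mean level, where the median SD within groups was 0.47, against 0.14 in the brightest 25% of rows, which held 7 of the 10 genes. By the methods' t-test the unadjusted p of Fosl1 was 0.0483, just under the limit of 0.05.

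Fos (NM_022197), the prototype of the family, had an intensity of 9661 and 9568 in the control rats against 7065 and 6342 in the MSCT rats. The control arrays were almost equal, and both MSCT arrays were below them. The log2 difference was -0.52 (standard error 0.19), or 1.44-fold lower, with an unadjusted limma p of 0.0441 and an adjusted p of 0.407. Its p exceeded 0.05 with any single array left out (0.0954 to 0.221 without adjustment), while the difference stayed between -0.60 and -0.44.

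Fosl2, which encodes Fra-2, had 2 measured rows. The brighter transcript (NM_001013146) had an intensity of 8202 and 8176 in the control rats against 4251 and 4550 in the MSCT rats. The replicates were close together and the groups far apart in relation to them. The log2 difference was -0.90 (standard error 0.18), 1.86-fold lower, below the fold limit of the screen (limma adjusted p = 0.289). For the other transcript (NM_012954), the intensity was 6083 and 6654 in the control rats against 5010 and 5435 in the MSCT rats, a log2 difference of -0.29 (standard error 0.19, limma adjusted p = 0.591). The rows agreed in direction and differed in size by 0.61 log2 units, and the deposited values do not show which exons their probes cover.

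Jun (NM_021835), the main partner of Fos proteins, had an intensity of 4416 and 4154 in the control rats against 2414 and 2399 in the MSCT rats. Replicates were nearly equal in both groups. The log2 difference was -0.83 (standard error 0.18), 1.78-fold lower, and again under the fold limit (limma adjusted p = 0.298). It lay between -0.88 and -0.79 with single arrays left out, and its unadjusted limma p, 0.00808 on all 4 arrays, was 0.0503 without MSCT replicate 1 and 0.0519 without MSCT replicate 2.

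The other Jun genes did not follow Jun. Junb (NM_021836), which can oppose Jun on some promoters, had an intensity of 9909 and 12453 in the control rats against 11879 and 12468 in the MSCT rats. The groups overlapped, and the log2 difference was 0.13 (standard error 0.21, limma adjusted p = 0.826), which became -0.03 without control replicate 1. Jund (NM_138875), the subunit that most cells express without stimulation, had an intensity of 1287 and 1454 in the control rats against 1626 and 2029 in the MSCT rats. The MSCT arrays were above the control arrays without overlap, yet the log2 difference of 0.41 (standard error 0.22) did not pass (limma adjusted p = 0.524). The difference of Jun was 0.96 log2 units below that of Junb and 1.24 below that of Jund, and that of Fosl1 was 2.70 above that of Fosl2 and 2.33 above that of Fos. The within-array ratios of these pairs did not overlap between the groups either. For Jun with Jund, and for Fosl1 with Fosl2 and with Fos, this followed from the single genes, which were separate in opposite directions. Over the 6 pairs compared, all of them picked after the values were seen and 1 of them the 2 rows of Fosl2, each exact permutation p was 0.333, also when adjusted over the pairs.

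Egr1 (NM_012551), a zinc finger factor that is among the first genes switched on by ERK through serum response factor, had an intensity of 7901 and 9597 in the control rats against 8973 and 7319 in the MSCT rats. The values interleaved, and the log2 difference was -0.10 (standard error 0.23, limma adjusted p = 0.876). Without control replicate 2 or without MSCT replicate 2 it was 0.04. Atf3 (NM_012912), a stress-induced factor of the ATF family, had an intensity of 2517 and 1825 in the control rats against 2407 and 2690 in the MSCT rats. Control replicate 1 lay between the MSCT arrays, and the log2 difference was 0.25 (standard error 0.24, limma adjusted p = 0.712). With 2 arrays per group, differences of this size could not be told from the spread between rats.

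**Figure D2:**
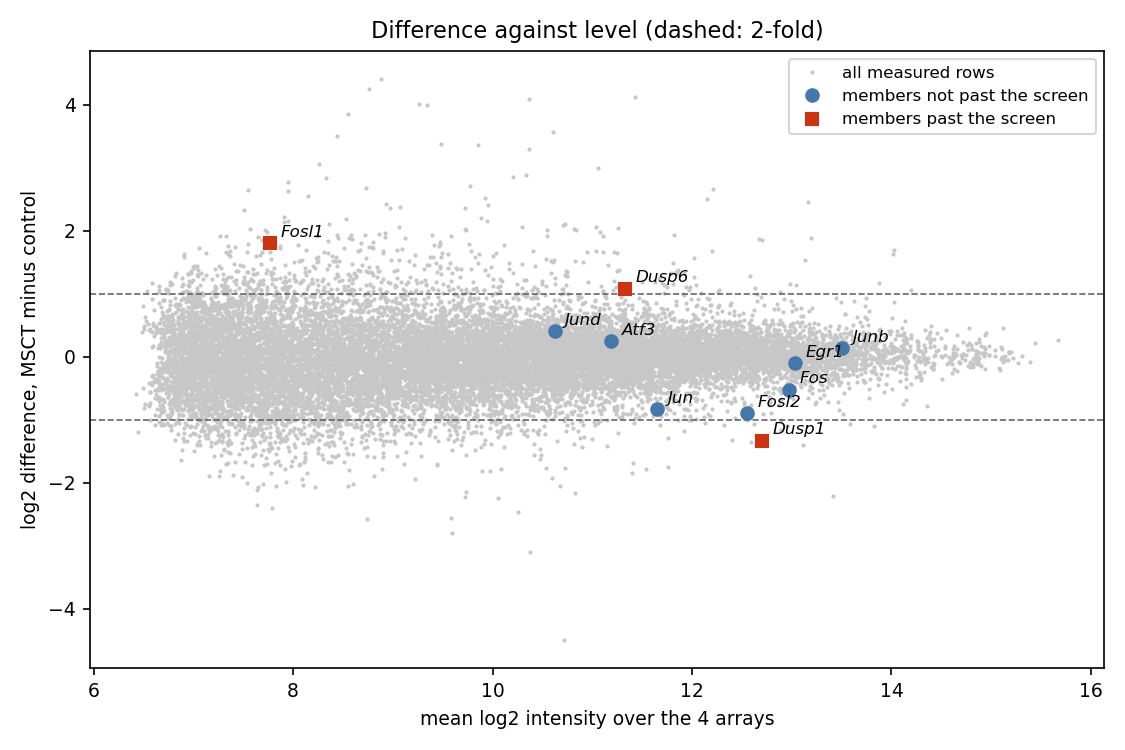
Log2 difference between MSCT and control against mean log2 intensity over the 4 arrays, with 1 grey point for each of the 18350 measured rows. Red squares mark Dusp1, Dusp6 and Fosl1, the genes past the screen, and blue circles the other 7. Fosl1 lies among dim rows with a wide scatter.

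The spread between replicates narrowed with level, as the plot of difference against level shows, so the comparison was repeated with settings that take the level into account. With a variance that depends on intensity (the trend and robust options of limma), 4 of the 10 reached an adjusted p of 0.05, where 2.11% of all rows passed. These were Dusp1 (adjusted p = 0.0133), Fosl2 (0.0140), Dusp6 (0.0245) and Jun (0.0282), while Fos had an adjusted p of 0.0930 and Fosl1 of 0.103. When the dimmest 50% of rows were left out, the same 4 genes passed by limma, with adjusted p from 0.0377 for Fosl2 to 0.0481 for Dusp6, where 2.69% of the 9175 remaining rows passed. When only the dimmest 25% were left out, 0 of the 9 genes tested passed, with adjusted limma p from 0.123 for Fosl2 to 0.144 for Dusp6 (0.0291% of rows passed). The row of Fosl1 was left out in both settings.

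**Figure D3:**
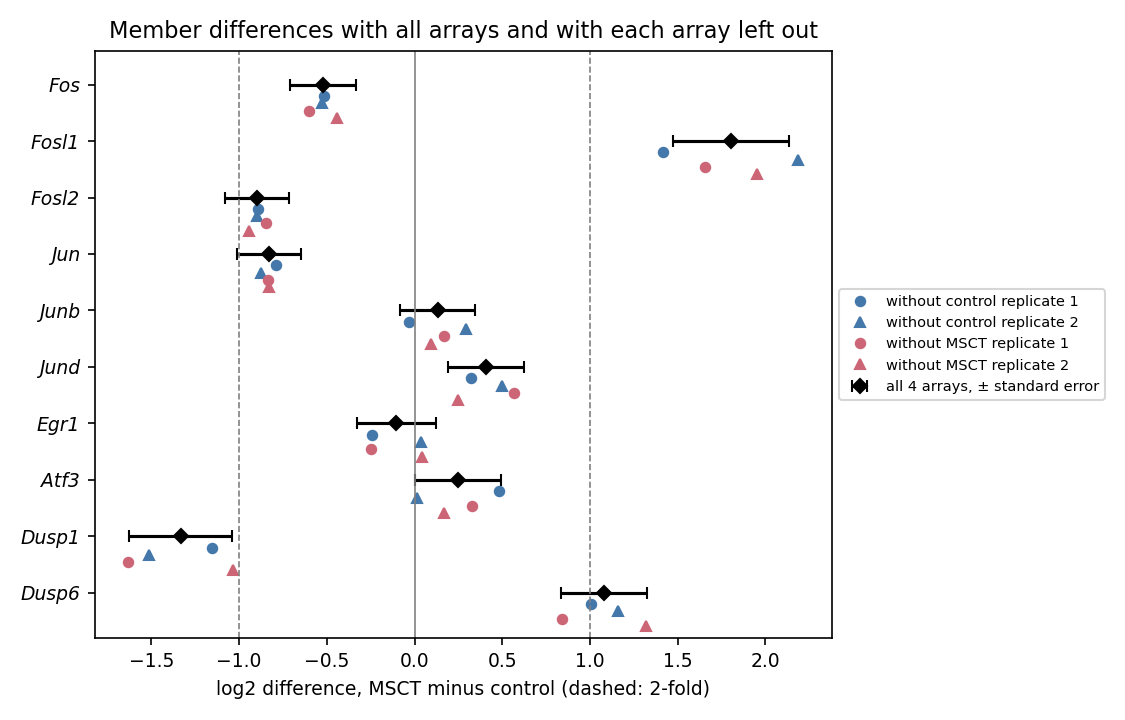
Log2 difference of each gene between MSCT and control. Black diamonds are the values from all 4 arrays with their standard error, and colored points the values with 1 array left out. Dusp1, Fos, Fosl2 and Jun stay below 0 and Fosl1, Dusp6, Jund and Atf3 above it in every case, while Junb and Egr1 cross it.

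The promoters of the genes past the screen were set beside these values to show the letters that cAMP- and stress-activated factors can bind. The RefSeq promoter table of GRCr8 held 7 of the 10 genes, without Fos, Jun and Atf3. In the 250 bases before the start site, searched on both strands, the full cAMP response element TGACGTCA was found in 2 of the 7, Dusp1 and Jund, and in 1.59% of 33469 promoters of the same length. Its core TGACG, which overlaps the full element, was found in 5 of the 7 (Fosl1, Junb, Jund, Egr1 and Dusp1) and in 18.2% of all. The AP-1 letters TGANTCA were found in 0 of the 7 and in 6.34% of all. The CArG box of serum response factor was found in Egr1 alone among the 7 and in 1.5% of all. For Dusp6 none of these were found; its start site in the table lies 102 bases inside the longest gene model. Capitals mark the elements in the promoters of Dusp1 (chr10:17184603-17184852, plus strand, with the full element 124 to 117 bases before the start) and Fosl1 (chr1:212183635-212183884, plus strand), both of GRCr8.
Dusp1: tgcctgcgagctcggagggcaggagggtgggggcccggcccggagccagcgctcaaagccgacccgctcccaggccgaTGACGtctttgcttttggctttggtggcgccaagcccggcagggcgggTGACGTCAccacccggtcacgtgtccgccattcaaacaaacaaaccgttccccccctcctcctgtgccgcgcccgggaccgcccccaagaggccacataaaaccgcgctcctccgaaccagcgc
Fosl1: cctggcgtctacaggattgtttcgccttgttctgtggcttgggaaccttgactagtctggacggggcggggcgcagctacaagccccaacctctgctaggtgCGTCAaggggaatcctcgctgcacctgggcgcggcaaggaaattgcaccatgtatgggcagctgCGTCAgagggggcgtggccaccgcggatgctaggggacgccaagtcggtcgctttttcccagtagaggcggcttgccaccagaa
A match says only that these letters are present.

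Other genes of the same response were read from 5 wider lists, with 112 of 161 genes measured. Of these, 7 were higher and 1 lower by the screen (7.14%, beside 4.63% of all rows). Among 25 other immediate early transcription factors measured, which include the Egr, Nr4a, Klf and Id families, none passed the screen by limma. For 2 of the 25 the unadjusted limma p was under 0.05, where 12% of all rows were. These were Myc, a driver of growth (intensity 1443 and 1038 against 2318 and 2582, log2 difference 1.00, just under the fold limit), and Id2, an inhibitor of differentiation (1326 and 1346 against 1968 and 1912, log2 difference 0.54). Their median difference was 0.15, with 19 of 25 above 0.

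Of 32 other immediate early effector genes measured, 2 passed the screen, both higher, where 2.12% of all rows were. Hbegf, a ligand of the EGF receptor, had an intensity of 498 and 423 in the control rats against 1333 and 812 in the MSCT rats, a log2 difference of 1.18 (standard error 0.31, limma adjusted p = 0.330). At an unadjusted p under 0.05, 4 of the 32 were higher and 4 lower, where 4.8% and 7.17% of all rows were, and the median difference was 0.08.

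Of 8 other MAP kinase phosphatases and feedback inhibitors measured, 1 was lower and 1 higher by the screen, where 2.51% and 2.12% of all rows were. Dusp4, a nuclear phosphatase close to Dusp1 in the family, fell from 229 and 200 to 64.7 and 101, a log2 difference of -1.41 (standard error 0.29, limma adjusted p = 0.289), on a dim row. By the methods' t-test the unadjusted p of Dusp4 was 0.0516, and it did not pass the screen. Ptpn7, a MAP kinase phosphatase of blood cells, rose from 213 and 172 to 376 and 467 (log2 difference 1.13, limma adjusted p = 0.289). The ERK feedback inhibitors Spry2, Spred1 and Spred2 had differences of 0.06, -0.57 and -0.68 and did not pass. Within the MAP kinase cascade itself, 1 of 30 measured genes passed, where 4.63% of all rows did. It was Mapk12, which encodes p38 gamma, a kinase abundant in muscle (467 and 446 against 990 and 889, log2 difference 1.04, limma adjusted p = 0.269). The median of this list was -0.12, with 8 of 30 above 0.

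Among 17 measured genes known as AP-1 regulated, 3 were higher by the screen, where 2.12% of all rows were, and 0 lower, where 2.51% were. At an unadjusted limma p under 0.05, 6 were higher and 2 lower, where 4.8% and 7.17% of all rows were. The 2 lower genes were Gclc of glutathione synthesis (log2 difference -0.97) and the metallothionein Mt1 (-0.72). The median difference was 0.34, with 13 of 17 above 0. Plau and its receptor Plaur, which direct plasmin to the cell surface in wound repair, had an intensity of 217 and 140 against 362 and 738, and of 801 and 702 against 1605 and 1479. The log2 differences were 1.57 (standard error 0.44) for Plau and 1.04 (standard error 0.20) for Plaur. Tgfb1, the cytokine of fibrosis and repair, had 560 and 627 against 1143 and 1590, a log2 difference of 1.19 (standard error 0.25). Their adjusted limma p-values were 0.338, 0.276 and 0.289. The matrix metalloproteinase genes Mmp3, Mmp7, Mmp9 and Mmp10 were blank on all 4 arrays. Mmp12 (log2 difference 0.19) and Mmp14 (-0.24) were measured and did not pass the screen. Of the 8 genes past the screen in the wider lists, Dusp4 alone passed with any single array left out. The number kept was 7 without control replicate 1, 4 without control replicate 2 (Hbegf, Ptpn7, Plau and Plaur were lost), 4 without MSCT replicate 1 (Hbegf, Mapk12 and Plaur were among those lost) and 5 without MSCT replicate 2 (Ptpn7, Plau and Tgfb1 were lost).

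**Figure D4:**
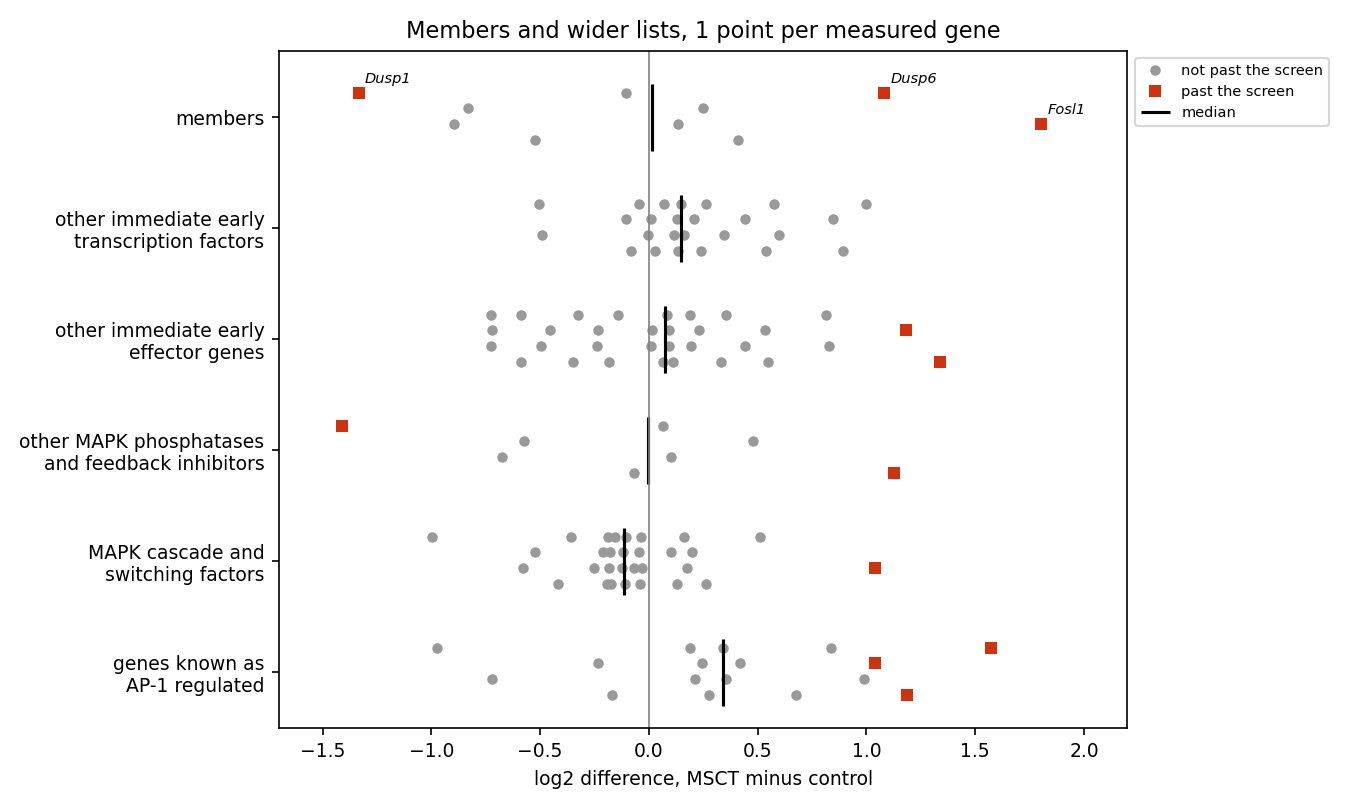
Log2 difference between MSCT and control for the 10 genes and for the measured genes of the wider lists, 1 point per gene, spread vertically for legibility. Black lines are medians, which lie between -0.12 and 0.34, and red squares the genes past the screen, 2 of them lower (Dusp1 and Dusp4) and 9 higher.

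The cell makeup of the pieces was read from marker lists. The sum of intensity over 14 measured markers of colon epithelium, with Epcam, Cdh1 and Krt20 among them, was 231790 and 236590 in the control rats against 268300 and 259700 in the MSCT rats. Over 6 smooth muscle markers it was 158050 to 185280 in the control group and 171320 to 173610 in the MSCT group, with no gene past the screen. Over 8 leukocyte markers it was 12920 and 14139 against 15281 and 17783, and the macrophage genes Cd68 and Csf1r were higher by 1.29 and 1.00 on the log2 scale, while Cd3d, Cd79b, Itgam, S100a8 and Fcer1a were blank. Of these 8 markers, 7 had a difference above 0, among them Cd3g (0.13) and Cd8a (0.01). Cd14 was below 0 (-0.04) and made up most of the sum (9308 and 10814 against 8986 and 10578). Over 10 markers of enteric neurons and glia the sum was 13657 and 13043 against 9809 and 9862, with Elavl4 lower by 1.06. Over 6 markers of fibroblasts and endothelium it was 26915 to 41248 against 44192 to 46517, with no gene past the screen. The collagens Col1a2 and Col3a1 were higher by 0.62 and 0.78. For Pecam1 (0.29), Kdr (0.05), Lum (0.03) and Dcn (0.01) the groups overlapped. Tff3 of goblet cells was higher by 1.49, and Acta1, a skeletal muscle actin, by 2.06 (1279 and 831 against 6013 and 3095), whereas the skeletal muscle genes Ckm (log2 difference 0.06) and Tnnt3 (0.87) did not pass, and Myh4 and Myl1 of skeletal muscle and the squamous keratins Krt5, Krt13 and Krt14 were blank. The part of these shifts in the differences of the immediate early genes was not tested. Differences of the reference genes were 0.12 for Actb, -0.19 for Gapdh, 0.44 for Hprt1 and -0.17 for B2m, and none passed the screen. Array medians lay between 848 and 893, and arrays correlated at a Pearson's r of 0.953 and 0.964 within groups and 0.934 to 0.959 between groups across rows, which are not independent replicates.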

How the data were processed

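Scanning (GenePix) and extraction (NimbleScan) were done by the authors, who deposited 1 linear intensity per RefSeq transcript and array; RMA is named in the submitters' processing notes. How probes were combined and why 8070 rows are blank on all 4 arrays is not given in the sources used here. The number of arrays limits the precision. Intensities were taken as log2 values with no offset, scaling or filter and fitted over all 18350 measured rows with limma 3.58.1 in R 4.3.3 (lmFit, eBayes), with Benjamini-Hochberg adjustment over all rows. Rows were named with the RefSeq table of GRCr8 (7068 rows named). The 10 genes, the wider lists and the marker lists were chosen with earlier results of these data known. Named were the 10 genes, list genes past the screen (or the 2 with the smallest p where a list had none), marker genes past it and reference genes. A rule on genes of like profile was not used, because the genes past the screen went both ways. Spry2, Spred1, Spred2, Gclc, Mt1, Mmp12, Mmp14, markers that did not pass, blank genes and the genes under other observations were added to the text with their values known. Some genes of the lists are counted but not reported here by name. The fit was tested on simulated data. Alternatives were the methods' t-test (the plain test that analysis of variance gives for 2 groups), other scalings, filters on dim rows, other variance models, an offset, a fold limit of 1.5, the replicate block and leaving out single arrays. The labels do not say that the replicate numbers pair rats, so the main fit has no block. Names, motif searches and figures were made in Python 3.11.15 (pandas 2.3.3, matplotlib 3.10.9).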

Additional observations from a re-analysis of the deposited data

How the results depend on the processing

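Directions of 8 of the 10 genes held under every alternative that tested them, 14 for Fosl1 and 16 for each of the others. Most of these could not change a direction. The methods' t-test, the filters on dim rows, the variance models, array weights, the replicate block, the fold limit and the adjusted p left each difference as it was. Only the scalings, the offset, the choice of row and leaving out single arrays bear on direction. With single arrays left out, Junb ranged from -0.0332 (without control replicate 1) to 0.2965 and Egr1 from -0.2508 to 0.0432 (without MSCT replicate 2), with 0.0365 without control replicate 2. The screen count of 1 lower gene became 0 by the methods' t-test and 3 with a fold limit of 1.5. With that fold limit, 2019 of the 18350 rows passed in either direction. The count of 2 higher genes became 1 without the dimmest 25% and without the dimmest 50% of rows, where Fosl1 was not tested. At an unadjusted p under 0.05, counts added after seeing the data, the number of higher genes also became 1 in both of these. With an adjusted p of 0.05 in place of the screen, all these counts and that of the wider lists became 0. The 8 genes of the wider lists (112 tested, beside 850 of 18350 rows) became 4 by the methods' t-test, beside 388 rows. These 4 were Ptpn7, Mapk12, Plaur and Tgfb1. The count was 5 with log2(value + 50), beside 633 rows, and 19 with the fold limit of 1.5, beside 2019 rows. Without the dimmest 50% of rows, only 80 genes of the wider lists were tested. Of these, 2 passed, beside 251 of 9175 rows. With single arrays left out, the median of the 10 genes ranged from -0.14 to 0.07. In these fits 1 group holds a single array, and the share of all rows past the screen moved too. Their counts past the screen therefore cannot be read beside those on all 4 arrays. Quantile normalization, equal array medians, array weights, and the row with the largest difference left the calls of the 10 genes by the screen unchanged. With the replicate number as a block, the counts by the screen were again 1 lower, 2 higher and 8 in the wider lists (replicate block). In that fit 971 of the 18350 rows passed, and Fos no longer had an unadjusted p under 0.05. The correlation of replicate differences between groups was 0.234, and with 2 numbers this does not show pairing.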

Other observations

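Among the genes of all lists, Cebpb and Egr3 were picked because their control rats lay far apart. Cebpb, which encodes a transcription factor of the acute phase response, had an intensity of 256 in control replicate 1 and 1125 in control replicate 2. Both MSCT arrays lay between them (766 and 839). Egr3 went the other way, with 589 in control replicate 1 and 212 in control replicate 2, against 329 and 530. The log2 differences of these genes were 0.58 and 0.24, with standard errors of 0.74 and 0.57, and the groups overlapped for both. Fos, Fosl2 and Jun, by contrast, differed between the control rats by 0.01, 0.00 and 0.09 on the log2 scale. They were named with their values known, and their gaps were the smallest among the immediate early genes followed here. The median gap was 0.31 over all rows and 0.19 among the brightest 25% of rows, to which these genes belong. Other genes followed here in that brightest part had gaps of 0.33 (Junb), 0.28 (Egr1) and 0.36 (Dusp1), above its median, and 0.15 (Dusp6), below it.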
